A study of Equus caballus with 12 samples.

Results

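The microRNAs (miRNAs) described here were the 3 miRNAs of the miR-106b-25 cluster (miR-106b, miR-93 and miR-25) and miR-92b, a relative of miR-25 that is transcribed from a locus of its own. They were chosen by name, as the rows for eca-miR-106b, eca-miR-93, eca-miR-25 and eca-miR-92b. These were 4 of the 294 known horse miRNAs in a table of 629 entries, and all 4 passed the filter on low values that left 256 known miRNAs for testing. Small RNA had been sequenced from the lung (caudal lobe of the right lung), the heart (left ventricle) and the liver (right lobe) of 4 horses, numbered 27, 30, 32 and 34. All were healthy cold-blooded stallions between 1 and 2 years of age, sampled at slaughter. Each tissue of each horse gave 1 library, so that 12 libraries formed 3 groups of 4, each of whole tissue from young cold-blooded males.

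A miRNA is a short RNA that guides silencing complexes to messenger RNAs, chiefly through its seed (bases 2 to 8). In mammals the miR-106b-25 cluster lies in an intron of MCM7, which encodes a subunit of the helicase that opens DNA for replication, and its 3 miRNAs are cut from 1 primary transcript. miR-106b and miR-93 carry the seed of the miR-17 family, whose best known targets include the cell cycle inhibitor CDKN1A. miR-25 carries another seed, which it shares with miR-92b, miR-92a, miR-363 and miR-32. The MCM7 cluster is a paralog of the miR-17-92 and miR-106a-363 clusters, known for their roles in cell proliferation and, in mice, in the growth of the lung.

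In the RefSeq annotation of the horse, all 4 miRNAs were matched by synonym. The genes of miR-25, miR-93 and miR-106b lay inside the span of MCM7. The gene of miR-92b lay inside no other gene, between THBS3, which encodes a thrombospondin, and MUC1, which encodes a mucin of epithelial surfaces. The mature sequences of the 4 miRNAs were not used here. The table also names 335 entries by their sequence alone, without a gene, and 75 of these passed the same filter. Only such entries give bases in the table. The entry with the profile nearest to that of each miRNA over the 12 libraries is therefore shown. These are entries of their own, not the 4 miRNAs, and a near profile does not mean a shared seed. They were chosen after their values were seen, bases 2 to 8 are in capitals, and none has been given a gene name:
Nearest to miR-106b: aACAUUCAuuguugucgguggguu
Nearest to miR-93: cACGCUCAugcacacacccacac
Nearest to miR-25: uGAGGUAGuaguuugugcuguug
Nearest to miR-92b: uCACCUGGacuccacgcgucuc

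The values are read counts that the authors divided by a size factor for each library, here called normalized counts. Each value was a whole multiple of the smallest step of its library, and if the lowest value of a library stands for the stated minimum of 6 reads per entry, the libraries held 3536536 to 7560746 reads per lung library, 8113895 to 9355513 per heart library and 3066869 to 8595569 per liver library. Muscle miRNAs summed to 8693 to 12572 normalized counts in the lung, 5460400 to 8413900 in the heart and 1511 to 6447 in the liver, and 5 of the 6 listed passed the filter. The 3 hepatocyte miRNAs summed to 633 to 2565 in the lung, 847 to 3278 in the heart and 983910 to 1394300 in the liver. Ligation and amplification differ between miRNAs, so levels were compared chiefly between tissues for 1 miRNA. In whole tissue, fewer cells of a type and less RNA per cell cannot be told apart.

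miR-92b separated the lung from both other tissues. It had 1338, 1484, 1760 and 1380.3 normalized counts in the lungs of horses 27, 30, 32 and 34. The hearts had 46.0, 32.7, 31.3 and 48.8 normalized counts. The livers had 44.4, 37.8, 47.7 and 35.0 normalized counts. Every lung library stood far above every heart and liver library, and the heart and liver values overlapped. Means were 1490.4 ± 190 in the lung, 39.7 ± 8.98 in the heart and 41.2 ± 5.85 in the liver (SD, n = 4 each). miR-92b held places 81 to 93 among the known miRNAs of the lung libraries, 180 to 190 in the heart and 187 to 199 in the liver.

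The lung mean of miR-92b was 37.5-fold the heart mean and 36.1-fold the liver mean. On the log2(normalized count + 1) scale the difference was 5.21 for lung over heart (SE 0.23, 95% interval 4.70 to 5.72, limma adjusted p = 1.2e-08). For lung over liver it was 5.14 (SE 0.23, 95% interval 4.63 to 5.66, limma adjusted p = 1.05e-08). By p-value miR-92b ranked 2 of the 256 tested miRNAs in lung over heart and 3 in lung over liver. A miRNA was called where its adjusted p was below 0.05 and its log2 difference was 1 or more in either direction. miR-92b passed this call rule in both comparisons and under all 25 alternative settings of each. For heart over liver the difference was -0.07 (95% interval -0.58 to 0.44, limma adjusted p = 0.821). That interval holds heart levels from 0.669-fold to 1.36-fold those of the liver, so a difference of this size in either direction could not be seen. Tissue took up 99.3% of the total spread of miR-92b (sum of squares over the 12 libraries), rank 4 among the tested miRNAs, against a median of 73.2% for all of them.

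The low levels in heart and liver rested on few reads, as inferred from the steps of the values. On that basis miR-92b had 1220 to 2508 reads per lung library, 22 to 37 per heart library and 24 to 65 per liver library. As a share of the reads in the table, miR-92b stood at 269 to 345 CPM in the lung libraries. The lowest of all, the heart of horse 30, stood at 2.71 CPM, with an exact 95% binomial interval of 1.70 to 4.11. The highest liver, that of horse 32, stood at 10.7 CPM (exact 95% interval 8.23 to 13.6). miR-92b was above 0 in all 12 libraries, and the gap between lung and the other tissues was far wider than these intervals. The intervals hold only if the inferred reads are right, and they cover counting error only, since reads amplified by PCR are not independent molecules.

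miR-25 was the most abundant of the 4 miRNAs by read count in every library. It had 17367, 21712, 18721 and 13434 normalized counts in the lungs of horses 27, 30, 32 and 34. The hearts had 7533, 9378, 10845 and 14384 normalized counts. The livers had 10621, 8576, 8312 and 9519 normalized counts. The lungs lay above all livers, while the heart of horse 34 lay above the lung of the same horse. Means were 17809 ± 3435 in the lung, 10535 ± 2902 in the heart and 9257 ± 1047 in the liver (SD, n = 4 each). The log2 difference was 0.78 for lung over heart (SE 0.22, limma adjusted p = 0.0129) and 0.93 for lung over liver (SE 0.22, limma adjusted p = 0.00351). Both passed the adjusted p but not the fold minimum, and the lung value was larger in 3 of 4 horses against the heart and in 4 of 4 against the liver. Heart over liver came to 0.15 (95% interval -0.33 to 0.64, limma adjusted p = 0.582). Whether these differences passed the thresholds changed when 1 horse was left out, which also left fewer libraries. Without horse 32 the lung over heart difference was little changed, while its SE rose to 0.29. Without horse 34 the difference was 1.07 for both lung comparisons, and both passed the call rule. The lung over heart difference was no longer past the adjusted p without horse 27 (0.63, limma adjusted p = 0.0703), horse 30 (0.63, limma adjusted p = 0.113) or horse 32 (0.77, limma adjusted p = 0.0713), within 9.07e-07 to 0.113 over its alternatives.

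miR-93 had 7442, 6230, 3979 and 6561 normalized counts in the lungs of horses 27, 30, 32 and 34. The hearts had 5003, 3169, 2659 and 2571 normalized counts. The livers had 4172, 4142, 3842 and 4125 normalized counts. The lung of horse 32 fell inside the range of the hearts and below 3 of the livers, and the 4 livers were nearly level. Means were 6053 ± 1474 in the lung, 3350 ± 1133 in the heart and 4070 ± 154 in the liver (SD, n = 4 each). The coefficient of variation in the liver was 3.78%, and 2 of the 247 tested miRNAs with a liver level above 0 varied less. The log2 difference was 0.87 for lung over heart (SE 0.25, limma adjusted p = 0.0133), past the adjusted p but not the fold minimum, with the lung value larger in 4 of 4 horses. For lung over liver it was 0.54 (95% interval -0.01 to 1.09, limma adjusted p = 0.0919), again larger in 4 of 4 horses. Heart over liver came to -0.33 (95% interval -0.88 to 0.21, limma adjusted p = 0.272). The lung over heart difference passed the call rule without the lung of horse 32 (1.06) or without the heart of horse 27 (1.08). It was no longer past the adjusted p without horse 30 (0.84, limma adjusted p = 0.0925) or horse 34 (0.71, limma adjusted p = 0.0932), within 0.000123 to 0.0932 over its alternatives.

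miR-106b, the least abundant of the cluster by read count, had 2418, 1959, 1645 and 2453 normalized counts in the lungs of horses 27, 30, 32 and 34. The hearts had 1805, 1312, 1281 and 1889.5 normalized counts. The livers had 1110.0, 1253, 753 and 834 normalized counts. Its order was lung, heart, liver within each of the 4 horses, although lung and heart overlapped as groups. Means were 2119 ± 388 in the lung, 1572 ± 320 in the heart and 988 ± 234 in the liver (SD, n = 4 each). For lung over liver the log2 difference was 1.11 (SE 0.24, limma adjusted p = 0.00186), a 2.15-fold ratio of means that passed the call rule. The call was lost without horse 34 (0.96) and without the liver of horse 32 (0.99), where the difference came to just under the fold minimum. For heart over liver the difference was 0.68 (SE 0.24, limma adjusted p = 0.0306), past the adjusted p but not the fold minimum, and the lowest heart (1281) lay just above the highest liver (1253). It was no longer past the adjusted p under 8 of the 25 alternatives, without horse 27, 32 or 34 among them (limma adjusted p = 0.0818, 0.0733 and 0.143, within 0.0202 to 0.143 over its alternatives). For lung over heart it was 0.43 (95% interval -0.08 to 0.95, limma adjusted p = 0.153).

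**Figure D1:**
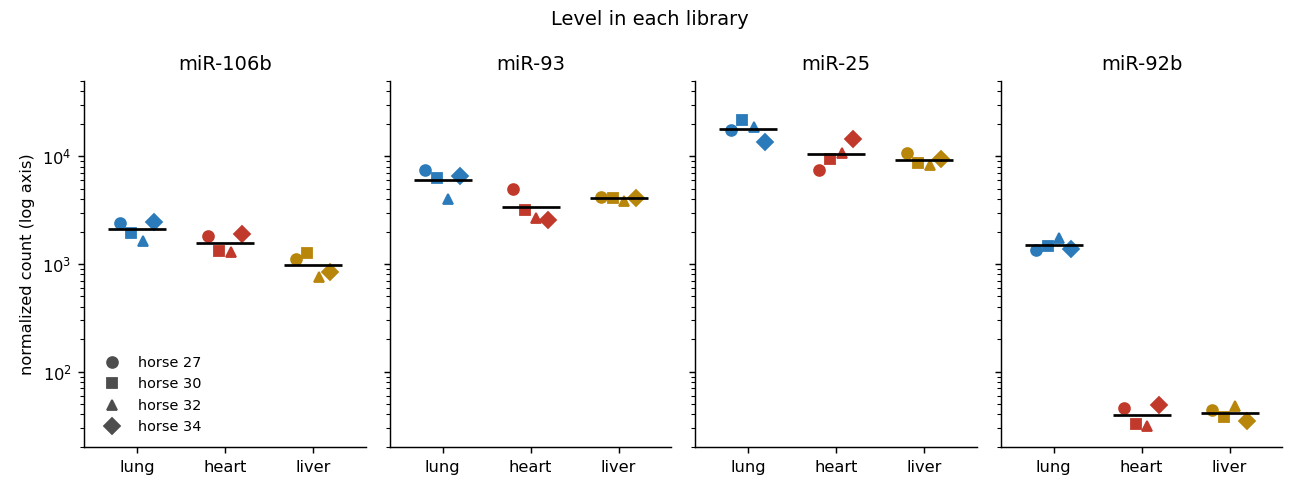
Level of miR-106b, miR-93, miR-25 and miR-92b in each library, in normalized counts on a log axis, by tissue. Symbols mark the horse and each bar the mean of 4 horses. miR-92b sits between 1338 and 1760 in the lungs and between 31.3 and 48.8 in the hearts and livers, while the 3 miRNAs of the MCM7 cluster stay within a far narrower range.

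The 3 comparisons draw on the same 12 libraries, so each lung, heart or liver library enters 2 of them. In lung over heart 1 of the 4 miRNAs was called, miR-92b, against 38.7% of all tested miRNAs, which divide into 19.5% higher and 19.1% lower in the lung. Groups did not overlap for 1 of 4, with the lung above, against 44.5% of all tested miRNAs in either direction and 22.7% with the lung above. By the adjusted p alone, with no fold minimum, 3 of 4 passed (miR-93, miR-25 and miR-92b), against 46.1%. In lung over liver 2 of 4 were called, miR-92b and miR-106b, against 51.6% of all tested miRNAs (64 miRNAs higher and 68 lower in the lung). Groups did not overlap for 3 of 4, miR-25 added, all with the lung above, against 52.7% in either direction and 25.8% with the lung above. By the adjusted p alone 3 of 4 passed, miR-106b, miR-25 and miR-92b, against 55.1%. In heart over liver 0 of 4 were called by limma and 1 of 4, miR-106b, had an unadjusted p under 0.05, where 46.9% of all tested miRNAs were called and 60.9% had an unadjusted p under 0.05 (the called divide into 19.9% higher and 27.0% lower in the heart). Groups did not overlap for 1 of 4, against 52.3%, and by the adjusted p alone 1 of 4 passed, against 53.5%. Against the calls in either direction, the 4 miRNAs were thus not called more often than all tested miRNAs. All calls of the 4 were higher in the lung. In that direction 50 of 256 tested miRNAs were called in lung over heart and 64 of 256 in lung over liver. Against these shares the 4 were called more often in both lung comparisons. With only 4 miRNAs, neither reading can be decided. miR-92b differed from the other 3 in the size of its difference.

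The scaling of the libraries moved all 4 miRNAs about alike. When each library was set to 1 common total in place of the authors' size factors, the median log2 difference of all tested miRNAs came to 1.18 for lung over heart, 0.20 for lung over liver and -1.37 for heart over liver, against 0, 0.08 and -0.23 with the size factors. On that scale lung over heart was 1.76 for miR-106b, 2.20 for miR-93, 2.11 for miR-25 and 6.52 for miR-92b, all called. Heart over liver turned to -0.52 for miR-106b (not called) and to -1.04 for miR-25 (called), and it was -1.53 for miR-93 and -1.23 for miR-92b, both called. The lung over liver differences were moved far less, and miR-25, at 1.07, was called there.

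**Figure D2:**
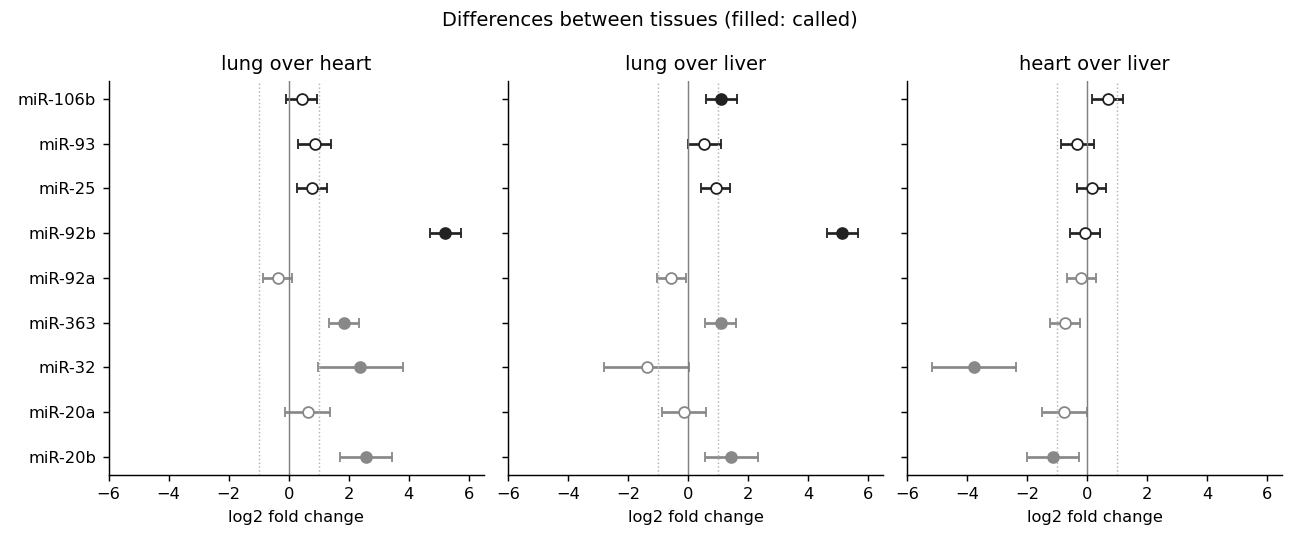
Log2 difference between tissues for the 4 miRNAs (black) and for relatives that share their seeds (grey), with bars for the 95% interval of limma, for lung over heart, lung over liver and heart over liver. Filled symbols passed the call rule and dotted lines mark the fold minimum of 1. miR-92b lies at 5.21 and 5.14 in the lung comparisons and at -0.07 in heart over liver, and all other intervals in black lie below 2.

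Ratios within a library do not depend on how libraries are scaled, and 7 pairs were compared in 3 comparisons, 21 exact two-sided permutation tests in all. With 4 libraries against 4 the smallest possible p is 0.0286, and 10 of the 21 tests reached it because the groups did not overlap. Adjusted over the 21 tests that p became 0.0601, so that 0 of the 21 passed an adjusted threshold of 0.05. The values below are therefore given with their spread and with whether the groups overlapped.

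Among the 3 miRNAs cut from 1 primary transcript, the ratio of miR-106b to miR-93 varied with the tissue. miR-106b stood at 0.325, 0.315, 0.414 and 0.374 of the miR-93 level in the lungs of horses 27, 30, 32 and 34. It stood at 0.361, 0.414, 0.482 and 0.735 in the hearts. It stood at 0.266, 0.303, 0.196 and 0.202 in the livers. All livers lay below all lungs and hearts, and lungs and hearts overlapped. The mean log2 ratio differed by 0.58 for lung over liver and by 1.01 for heart over liver, a 2.02-fold difference (exact permutation p = 0.0286 for each, adjusted p = 0.0601). For lung over heart the difference was -0.44 (exact permutation p = 0.114). Ratios of miR-106b to miR-25 and of miR-93 to miR-25 overlapped between tissues in all 6 tests, and the smallest exact permutation p among them was 0.114.

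The cluster as a whole summed to 25980 ± 3270 normalized counts in the lung (22447 to 29901), 15457 ± 2290 in the heart (13859 to 18845) and 14315 ± 1245 in the liver (12906 to 15902; SD, n = 4 each). Every lung sum lay above every heart and liver sum, and the mean lung sum was 1.68-fold the heart sum and 1.81-fold the liver sum. With each library set to 1 common total the sums were 5530 ± 758 CPM in the lung, 1301 ± 132 CPM in the heart and 2764 ± 147 CPM in the liver, and the hearts lay below the livers as well. miR-25 made up 68.3% ± 7.84 of the sum in the lung, 67.5% ± 10.6 in the heart and 64.6% ± 2.34 in the liver. miR-106b made up 8.28% ± 2.05 in the lung, 10.2% ± 1.70 in the heart and 6.89% ± 1.495 in the liver. The shares of miR-25 overlapped between all 3 tissues.

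miR-92b and miR-25 have the same seed but separate loci, and their ratio was separate in the lung. miR-92b stood at 0.0771, 0.0684, 0.0940 and 0.103 of the miR-25 level in the lungs of horses 27, 30, 32 and 34. The ratio was between 0.00298 and 0.00624 in the hearts and between 0.00378 and 0.00586 in the livers. The lungs were thus separate from both, by 4.44 on the log2 scale over the heart (21.7-fold) and by 4.21 over the liver (18.6-fold; exact permutation p = 0.0286 for each, adjusted p = 0.0601). For heart over liver the difference was -0.22 (exact permutation p = 0.429).

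miR-92a, the seed relative made from the miR-17-92 and miR-106a-363 clusters, had a different pattern of levels. It had 17212 to 35277 normalized counts in the lung, 29874 to 38633 in the heart and 34050 to 43499 in the liver, with log2 differences of -0.36 for lung over heart and -0.56 for lung over liver (limma adjusted p = 0.203 and 0.0509). With each library set to 1 common total, its lung over heart difference turned to 0.97 (limma adjusted p = 0.00158, under the fold minimum), at 4302 to 7600 CPM in the lung, 2521 to 3533 CPM in the heart and 6479 to 8780 CPM in the liver. The ratios below do not depend on that choice. The log2 ratio of miR-92b to miR-92a was 5.57 higher in the lung than in the heart, 47.7-fold, and 5.70 higher than in the liver, 52.0-fold. The log2 ratio of miR-25 to miR-92a was 1.14 higher in the lung than in the heart, 2.20-fold, and 1.49 higher than in the liver, 2.80-fold. Groups did not overlap in these 4 comparisons (exact permutation p = 0.0286 for each, adjusted p = 0.0601). The ratio of miR-25 to miR-92a differed by 0.35 for heart over liver (exact permutation p = 0.2).

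**Figure D3:**
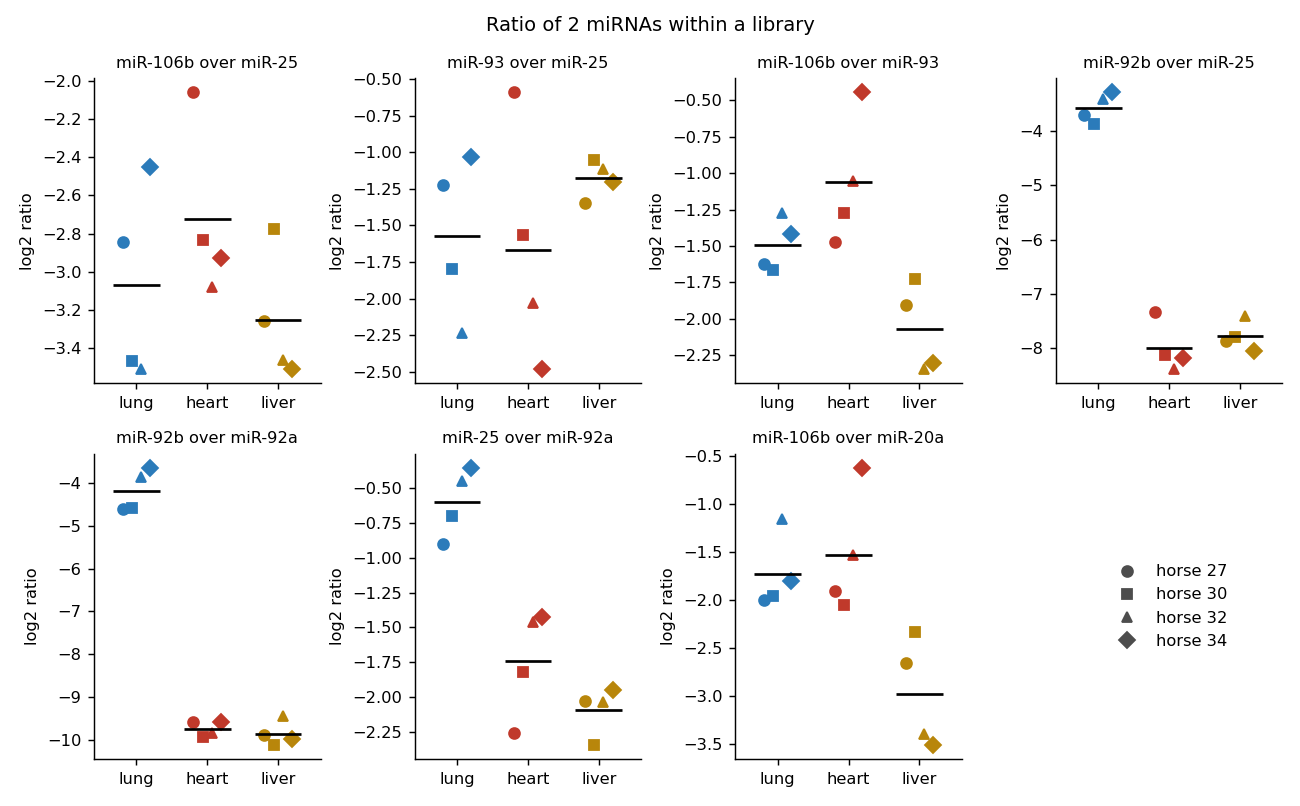
Log2 ratio of 2 miRNAs within each library, for the 7 pairs compared, by tissue. Symbols mark the horse and each bar the mean of 4 horses. The ratios of miR-92b to miR-25 and to miR-92a and of miR-25 to miR-92a are separate in the lung, and the ratio of miR-106b to miR-93 lies lowest in the 4 livers.

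The summed level of the miR-25 seed family (miR-25, miR-32, miR-92a, miR-92b and miR-363) overlapped between the 3 tissues on the authors' size factors, at 48869 ± 10690 normalized counts in the lung, 45418 ± 5566 in the heart and 50277 ± 5015 in the liver (SD, n = 4 each). With each library set to 1 common total the sum was 10311 ± 1916 CPM in the lung, 3830 ± 387 CPM in the heart and 9726 ± 971 CPM in the liver, and every heart lay below every lung and liver. Shares of the family do not depend on the scaling. miR-25 took 36.7% ± 2.89 of the family in the lung, 23.0% ± 4.55 in the heart and 18.5% ± 1.68 in the liver. miR-92b took 3.16% ± 0.777 in the lung, 0.0869% ± 0.0136 in the heart and 0.0829% ± 0.0169 in the liver. miR-92a took the rest for the most part, at 55.8% ± 5.24 in the lung, 75.8% ± 4.44 in the heart and 78.2% ± 2.20 in the liver. Lung shares of miR-25 (32.8% to 39.0%) did not overlap with those of the heart (17.1% to 26.8%) or the liver (16.04% to 19.9%). Shares within a family move together by construction and were given no test.

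**Figure D4:**
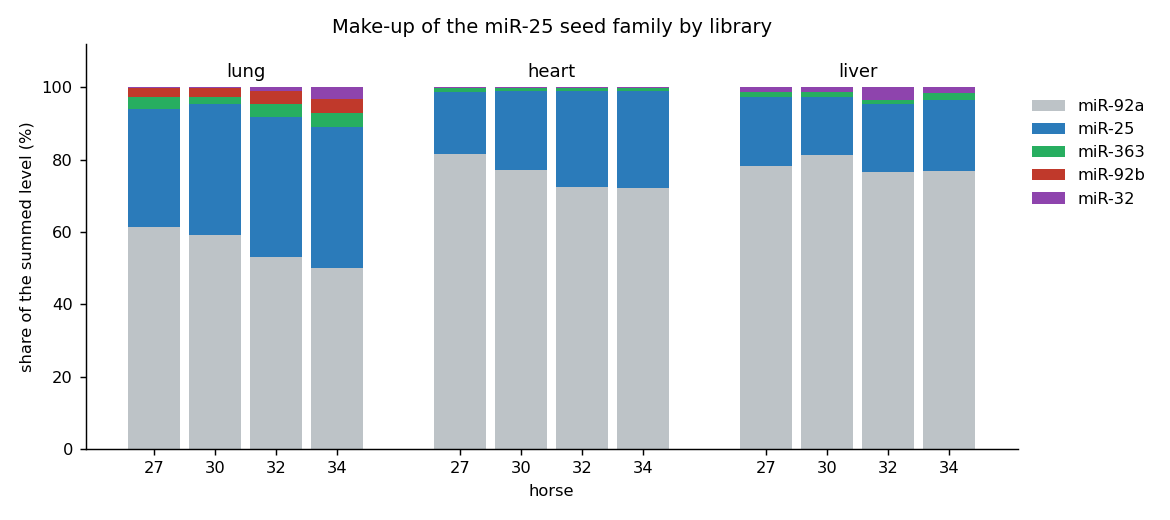
Share of the summed level of the miR-25 seed family taken by each of its 5 listed miRNAs, in percent, for each library, grouped by tissue and labelled by horse. miR-25 takes 32.8% to 39.0% in the lungs and 16.04% to 26.8% in the hearts and livers, and miR-92b is visible only in the lungs, where it averages 3.16%.

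Of the other miR-25 seed relatives, miR-363 was called higher in the lung in both lung comparisons. It had 1719, 1110.4, 1699 and 1334 normalized counts in the lungs of horses 27, 30, 32 and 34, 348 to 495 in the hearts and 502 to 848 in the livers. Its log2 difference was 1.84 for lung over heart and 1.09 for lung over liver (limma adjusted p = 4.61e-05 and 0.00186), both far below that of miR-92b. miR-32 was higher in lung over heart (2.38, limma adjusted p = 0.00935) and lower in heart over liver (-3.76, limma adjusted p = 0.000357), and for lung over liver it stood at -1.38 (limma adjusted p = 0.0908). With miR-92b, 3 of the 5 tested miRNAs of the seed family were called higher in lung over heart and 2 of 5 in lung over liver, and 1 of 5 was called lower in heart over liver. Over all tested miRNAs 50 of 256 and 64 of 256 were called higher in these lung comparisons, and 69 of 256 lower in heart over liver. The median log2 difference of the 5 was 1.84, 0.93 and -0.20 in these comparisons, beside 0, 0.08 and -0.23 for all tested miRNAs. These medians are the values of miR-363, miR-25 and miR-92a. miR-367, which also has this seed, was not matched.

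The list fixed for the miR-17 seed family holds miR-106b and miR-93, and 7 of its 8 miRNAs were tested. It also holds miR-18a and miR-18b, whose seed is close to that of miR-17 but not the same. In lung over heart 1 was called higher (miR-20b), in lung over liver 3 were called higher (miR-106b, miR-20b and miR-18a) and in heart over liver 1 was called lower (miR-20b), beside the shares of all 256 tested miRNAs just given. For miR-18a 2 livers were listed at 0, and the other livers (42.6 and 51.8 normalized counts) overlapped the lungs (42.8 to 287). The median log2 difference of the 7 was 0.87, 1.11 and -0.33, beside the same medians of all tested miRNAs. These are the values of miR-93, miR-106b and miR-93 themselves, so they say little about the other listed miRNAs. miR-17 and miR-106a, whose values could not be read one by one, enter these medians. miR-20b, from the miR-106a-363 cluster, differed by 2.58, 1.44 and -1.14 at a low level of 84.9 to 234 normalized counts in the lung, 13.4 to 42.3 in the heart and 44.8 to 61.4 in the liver. miR-20a, from the miR-17-92 cluster, was not called, with log2 differences of 0.64, -0.13 and -0.77, although with each library set to 1 common total it was called in lung over heart (1.97) and in heart over liver (-1.96). The ratio of miR-106b to miR-20a was separate between lung and liver (log2 difference 1.25) and between heart and liver (1.45), at exact permutation p = 0.0286 and adjusted p = 0.0601. miR-18b, listed in 2 lung libraries only, was not tested.

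miR-17 and miR-106a, the remaining miRNAs of this seed family, were not called in any comparison on the size factors (with 1 common total miR-17 was, in lung over heart, at limma adjusted p = 0.0492), and their values could not be read one by one. Both were above 0 in 7 libraries, where the higher was 1.04 to 1.07 times the lower. In the other 5 libraries 1 of them was listed at 0 while the other stood at 2516 to 10515 normalized counts. Shares of the miR-17 seed family were therefore not used for miR-106b and miR-93.

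By cluster, and beside 50 and 64 of 256 tested miRNAs called higher in the lung comparisons and 69 of 256 lower in heart over liver, the miR-17-92 cluster had 1 of 6 tested miRNAs called higher in lung over heart (miR-19b), 1 of 6 higher in lung over liver (miR-18a) and 1 of 6 lower in heart over liver (miR-19b). The miR-18a call has the limit given above, with 2 livers listed at 0. The miR-106a-363 cluster had 2 of 3 called higher in each lung comparison (miR-20b and miR-363) and 1 of 3 lower in heart over liver (miR-20b). The list of this cluster holds miR-106a, whose values could not be read alone, and it leaves out miR-92a and miR-19b, which both clusters encode and which were counted with the miR-17-92 cluster. The miR-106b-25 cluster itself had 0 of 3 called by limma in lung over heart, 1 of 3 in lung over liver and 0 of 3 in heart over liver. At an unadjusted p under 0.05 the cluster had 2 of 3 in lung over heart (miR-93 and miR-25), 2 of 3 in lung over liver (miR-106b and miR-25) and 1 of 3 in heart over liver (miR-106b), beside 53.1%, 58.2% and 60.9% of all tested miRNAs.

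Likeness of profile was measured as the root mean square difference of centred log2 values over the 12 libraries, against the 255 other tested miRNAs, where 0 is an identical profile. For miR-92b the nearest was miR-153 (0.57), listed at 12.4 to 47.5 normalized counts in the lung and at 0 in all hearts and livers. miR-153 thus passed the filter on low values through the lungs alone. Next came miR-211 (1.09), miR-182 (1.11), miR-200c (1.30) and miR-200b (1.45), where miR-182 is a miRNA of sensory and epithelial cells and the miR-200 miRNAs maintain the epithelial state. The median over all tested miRNAs was 2.70, and miR-25, the nearest of the cluster, was in place 38 at 2.06.

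The profiles of the 3 cluster miRNAs lay close to each other and to many others. miR-106b was nearest to miR-181a (0.31), miR-181b (0.34), miR-140-5p (0.42), miR-25 (0.44) and miR-197 (0.45), with miR-93 in place 8 (0.50) and a median of 1.36. miR-25 was nearest to miR-181b (0.34), miR-1180 (0.35), miR-1301 (0.36), miR-502-5p (0.38) and miR-1839 (0.39), with miR-106b in place 10 (0.44) and miR-93 in place 19 (0.54). miR-93 was nearest to miR-362-5p (0.31), miR-502-5p (0.32), miR-660 (0.35), miR-20a (0.35) and miR-501-5p (0.36). Its cluster partners miR-106b and miR-25 were in places 14 (0.50) and 21 (0.54). These distances are a description and were given no test.

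Among the sequences shown at the start, the entry nearest to miR-25 (0.37) was abundant, at 50870 to 115580 normalized counts in the lung, 17516 to 40662 in the heart and 26752 to 37653 in the liver. The entry nearest to miR-106b (0.41) averaged 72.5 normalized counts in the lung, 59.9 in the heart and 23.6 in the liver. The entry nearest to miR-93 (0.47) averaged 2089.8 in the lung, 1882 in the heart and 1512 in the liver. The entry nearest to miR-92b (1.30) was scarce and was listed at 9.12 to 21.7 in the lungs, at 12.4 in the heart of horse 27 and at 0 in the other hearts and in all livers. Bases 2 to 8 of this entry were found in no other entry named by sequence.

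Markers of other cell types moved with the tissues as well. The 6 epithelial miRNAs fixed as markers (the miR-200 family and miR-205) summed to 66725 to 83600 normalized counts in the lung, 317 to 1008 in the heart and 5369 to 7500 in the liver, and 6 of 6 were called higher in the lung in both lung comparisons. In heart over liver 5 of the 6 were called lower, with miR-141 listed at 0 in all hearts. In the same comparison miR-92b differed by -0.07 on the size factors. With each library set to 1 common total miR-92b differed by -1.23 and was called lower. The 3 multiciliated cell miRNAs (miR-34b-5p, miR-34c and miR-449a) summed to 18721 to 51192 in the lung, 17.8 to 402 in the heart and 0 to 118 in the liver, and 3 of 3 were called higher in both lung comparisons. The 4 tested neural and endocrine miRNAs summed to 3395 to 7258 in the lung, 2305 to 8707 in the heart and 3102 to 6068 in the liver. Of them 1 was called higher in lung over heart (miR-153) and 2 in lung over liver (miR-153 and miR-9a). In heart over liver 1 was called higher (miR-9a, 6.83). miR-153 was listed at 0 in all hearts and livers. It passed the filter through its lung values alone, so its calls higher in the lung are not independent of that filter. miR-9a stood at -1.61 in lung over heart, not called. The 4 tested leukocyte miRNAs summed to 10371 to 26271 in the lung, 7920 to 11011 in the heart and 1708 to 6109 in the liver. In lung over heart 2 of them were called higher and 1 lower, and in lung over liver 3 were called higher. The 2 red blood cell miRNAs found, miR-144 and miR-486-5p, summed to 25239 to 66840 in the lung, 66906 to 160130 in the heart and 4150 to 6888 in the liver. miR-144 was listed at 0 in all hearts, so the heart sum was that of miR-486-5p alone. miR-486-5p, the 1 tested, was called lower in lung over heart and higher in lung over liver. The part of these cells in the levels of miR-92b and of the cluster was not tested.

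Differences between horses took up 14.4% of the sum of squares of miR-106b, 24.4% of that of miR-93, 1.13% of that of miR-25 and 0.0886% of that of miR-92b, beside a median of 6.44% over all tested miRNAs. Differences between tissues took up 74.9% for miR-106b, 59.3% for miR-93 and 71.6% for miR-25, close to or below the median of 73.2%. Within the lung the coefficient of variation was 18.3% for miR-106b, 24.4% for miR-93, 19.3% for miR-25 and 12.7% for miR-92b, all below the median of 35.6%. Within the heart it was 20.4%, 33.8%, 27.5% and 22.6% in the same order, with a median of 37.9%. Within the liver it was 23.7%, 3.78%, 11.3% and 14.2%, with a median of 27.7%.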

How the data were processed

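Lung, heart and liver libraries of 4 horses were analysed from 1 table, with the tissue and horse taken from the labels. The authors trimmed the reads, kept lengths of 18 to 25 nt, counted known miRNAs and normalized them, and the deposited values are a signal, counts divided by a size factor per library. The methods name Trim Galore and sRNAbench for trimming and counting, the submitters' processing notes Trimmomatic and BWA, and both name DESeq2. The methods name it for the test of the miRNAs, and that it also gave the size factors is read from the table. The methods name EquCab3.0 as the reference genome. RefSeq of another assembly was used for names and neighbours only. The table also holds the authors' comparison of liver over lung (log2 fold change, standard error, statistic, p-value and adjusted p-value), which was not used. It holds 0 columns from other samples.

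Of the known miRNAs, 256 reached 10 normalized counts in 4 or more libraries. They were fitted as log2(normalized count + 1) with limma 3.58.1 (R 4.3.3, trend in the variance, 1 mean per tissue, 12 libraries in 1 fit, 9 residual degrees of freedom) and adjusted by Benjamini-Hochberg. Fold changes on this scale understate the change of low miRNAs. A call needed an adjusted p below 0.05 and a log2 difference of 1 or more in either direction. Ratios used exact permutation tests. Other steps ran in Python 3.11.15 with scipy 1.17.1, pandas 2.3.3, matplotlib 3.10.9 and numpy 2.4.6. The fit was tested on simulated data. Each value was a whole multiple, within 0.01, of the lowest value of its library divided by the minimum read count of 6, and the read numbers were inferred from this. They hold only if the lowest value of a library stands for 6 reads, and no test was run on them. The same horse gave all 3 tissues, so the horse number pairs libraries by design. Deviations from the tissue means correlated at -0.27 to 0.151 between libraries of the same horse (12 pairs) and at -0.273 to 0.36 between different horses (36 pairs). Other pseudocounts, filters, scalings (CPM, and a trimmed mean of M values, TMM, without weights), a replicate block and leaving out each horse or library were tried.

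Named are the 4 miRNAs, the listed members of the miR-17-92 and miR-106a-363 clusters and of both seed families, and the 5 tested miRNAs with the nearest profile to each. The members and lists were chosen with earlier results of these data known.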

Additional observations from a re-analysis of the deposited data

Results flagged for a closer look

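In each tissue the highest or lowest of the 4 horses was set against the other 3 for the named cluster and seed family miRNAs, and 9 of 43 such groups held a library far from the rest, where chance gives about 1 in 20. Among the 12 groups of the 4 miRNAs described here there was 1. miR-93 in the liver of horse 32 stood at 3841.5 normalized counts, with the other livers at 4125 to 4172, a small gap in a group that was otherwise nearly level.

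The other 8 groups were of relatives, and 3 of them were in the liver of horse 32 and 3 in the lung of horse 34. In the liver of horse 32 miR-19a stood at 137.33 (others 45.1 to 49.9), miR-19b at 2441.8 (others 900.1 to 919) and miR-32 at 1507.7 (others 624 to 733). In the lung of horse 34 miR-18a stood at 287.37 (others 42.8 to 73.3), miR-19a at 229.67 (others 22.6 to 38.6) and miR-19b at 3260.6 (others 366 to 743). miR-19a in the heart of horse 30 stood at 34.182 (others 14.5 to 16.2), and miR-20b in the liver of horse 34 at 61.415 (others 44.8 to 46.2). In the lung of horse 34 and the liver of horse 32, miR-106b, miR-25 and miR-92b did not stand apart in this way.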

How the results depend on the processing

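The miR-92b calls in both lung comparisons held under all alternatives run, at 4.93 to 6.52 for lung over heart and 4.87 to 5.29 for lung over liver. With CPM in place of the size factors, the median of all tested miRNAs stood at 1.18 for lung over heart, 0.20 for lung over liver and -1.37 for heart over liver. The calls became 120 higher and 17 lower (50 and 49 as reported) for lung over heart, 69 and 65 (64 and 68) for lung over liver and 27 and 136 (51 and 69) for heart over liver. With CPM lung over heart was 1.76 for miR-106b, 2.20 for miR-93 and 2.11 for miR-25, all called. Lung over liver was 1.07 for miR-25, also called. Heart over liver was -1.53 for miR-93, -1.23 for miR-92b and, turned round, -1.04 for miR-25, all called, and -0.52 for miR-106b, turned round and not called, beside that median of -1.37. With no fold minimum miR-93 (0.87) and miR-25 (0.78) were called in lung over heart, miR-25 (0.93) in lung over liver and miR-106b (0.68) in heart over liver.

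Leaving out 1 horse or library gave ranges for lung over heart of 0.34 to 0.55 (miR-106b), 0.71 to 1.08 (miR-93), 0.63 to 1.07 (miR-25) and 5.03 to 5.35 (miR-92b). For lung over liver they were 0.96 to 1.27 (miR-106b), 0.42 to 0.73 (miR-93), 0.79 to 1.07 (miR-25) and 5.06 to 5.23 (miR-92b). miR-25 was called there without horse 27 (1.003), horse 34 (1.07) or the lung of horse 34 (1.06). For heart over liver they were 0.51 to 0.88 (miR-106b), -0.55 to -0.22 (miR-93), -0.00996 to 0.37 (miR-25) and -0.25 to 0.10 (miR-92b). The uncalled heart over liver difference changed sign without the heart of horse 34 for miR-25 (-0.00996) and, for miR-92b, without horse 32 (0.10), the heart of horse 30 (0.0120) or 32 (0.0323) or the liver of horse 32 (0.00238). The cause of these changes was not tested.

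With the replicate block for the horse, 97, 131 and 116 miRNAs were called in lung over heart, lung over liver and heart over liver, miR-92b kept 5.21 in lung over heart (limma adjusted p = 1.43e-06, within 2.59e-09 to 9.14e-06 over the alternatives), and no call of the 4 miRNAs changed. Differences of 4 paired ratios cannot go below an exact permutation p of 0.125. Tests on whole reads, planned in case the values gave them, were not run, because the reads could only be inferred. Heart and liver levels of miR-92b rested on 22 to 65 inferred reads per library, which limits any comparison between these 2 tissues.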
